A study of Homo sapiens with 6 samples.

Results

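The heat shock proteins are chaperones that keep other proteins folded, and the heat shock factors are transcription factors that can switch their genes on. Described here are 10 genes of this group, out of 25277 gene rows in the data: the factors HSF1 and HSF4, the cytosolic chaperones HSPA1A, HSPA1B, HSPA8, HSPH1, DNAJB1 and HSP90AA1, the small heat shock protein HSPB1, and the mitochondrial chaperonin HSPD1. They were taken from the table by gene symbol. HSF4 was chosen by its measured FPKM, since its level was lower in every library with a guide against NR4A1 than in the control labelled as the same cell line. Its values against the controls are therefore a description with no test. The library labelled Rec-1 control was closer to Jeko than to its own line, as described below. Whether HSF1 and the cytosolic chaperones followed HSF4 was the question. HSF1 did not differ in a constant direction. DNAJB1 was higher and HSPB1 lower than the control in all 4 guide libraries, as were 21% and 21.1% of all genes tested. None of the 7 other genes that could be tested passed the threshold against the controls. The share of all genes that passed was 0.246% over both lines, 0.439% in Jeko and 19.2% in Rec-1.

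Mantle cell lymphoma is a cancer of B cells, and Jeko and Rec-1 are established human lines of it. Each line had been made to carry Cas9 with a tet-on (doxycycline-inducible) vector, which was empty in the control and held a single guide RNA (sgRNA) against the nuclear receptor gene NR4A1 in the others. All cells, controls included, received doxycycline for 48 h. Each line gave 1 control, 1 library of sgRNA 1 and 1 of sgRNA 2, so there were 6 libraries and no replicate of a control. Whether each stable line was a pool or a single clone, and whether libraries came from separate cultures, is not given in the sources used here, so p-values measure only the spread between these libraries.

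HSF1 is held inactive by chaperones in unstressed cells. When unfolded proteins accumulate, it is released, forms trimers, binds repeats of the bases GAA called heat shock elements, and drives genes such as HSPA1A, HSPH1 and DNAJB1. HSF4 is best known from the lens of the eye, where its loss causes cataract. HSPA8 is the constitutive HSP70 of the cytosol, DNAJB1 is a J-domain partner that hands clients to HSP70, HSPH1 exchanges its nucleotide, and HSP90AA1 encodes the stress-inducible HSP90 that holds kinases and receptors in a ready state.

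Values are FPKM, fragments scaled by transcript length and library size, so levels can be set side by side between genes. The targeted gene NR4A1 had 5.99, 3.89 and 4.44 FPKM in the control, sgRNA 1 and sgRNA 2 of Jeko, but 11.6, 27.4 and 12.7 in the same order in those labelled Rec-1, so its RNA was lower with guides in Jeko only. The library labelled Rec-1 control was closer to Jeko than to its own line: across 10313 protein-coding genes its Pearson r was 0.988 against the Jeko control, but 0.805 and 0.811 against those labelled Rec-1 sgRNA 1 and 2. The mantle cell marker CCND1 lay between 442 and 815 FPKM in Jeko and the library labelled Rec-1 control, and was 0.696 and 0.592 in those labelled Rec-1 sgRNA. Of the 8 B-cell and mantle cell markers, CD5 alone was under 1 FPKM in every library. The summed level of 5 T-cell markers reached 102 and 120 FPKM in those labelled Rec-1 sgRNA, against 2.69 to 5.69 in the other libraries, while CD2 did not exceed 0.0291 FPKM in any library and CD8A was listed at 0 in these libraries. Differences from the library labelled Rec-1 control include these, and their part in the results was not tested. Each member's difference is therefore also given for Jeko alone. The medians over protein-coding genes also moved with transcript length, from −0.31 and −0.36 in the shortest of 5 length classes to 0.37 and 0.36 in the longest for Jeko sgRNA 1 and 2, as differences of log2(FPKM + 1) from the control.

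HSF4 was the lowest of the 8 detected genes in every library. In Jeko the control reached 5.83 FPKM, sgRNA 1 1.72 and sgRNA 2 1.62. The library labelled Rec-1 control gave 7.53 FPKM, sgRNA 1 of that line 0.809 and sgRNA 2 0.773. Every sgRNA library thus lay below both controls, and the guides of each line were close to each other. The sgRNA libraries had 29.6% and 27.7% of the control level in Jeko. Those labelled Rec-1 had 10.7% and 10.3% of the level in the library labelled Rec-1 control, which was closer to Jeko. On the log2(FPKM + 1) scale the differences were −1.33 and −1.38 for the Jeko guides, and −2.24 and −2.27 for those of Rec-1. These values chose the gene. In bulk RNA, fewer cells that express a gene and less RNA per cell cannot be told apart. HSF4 has an annotated transcript of 1702 nt and falls in the shortest of 5 length classes, whose median differences were −0.31, −0.36, −0.22 and −0.25. With values adjusted for transcript length, the difference of HSF4 over both lines was −1.57 in place of −1.80.

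HSF4 occupies bases 67198584 to 67203848 of chromosome 16 (GRCh37, plus strand), downstream of FBXL8 and upstream of NOL3. An annotated protein-coding gene that spans FBXL8 and HSF4 overlaps it, and whether counting split reads between them is not stated. In the order control, sgRNA 1 and sgRNA 2, FBXL8 had 1.01, 0.723 and 0.984 FPKM in Jeko and 1.07, 2.05 and 0.525 in Rec-1, so it did not share the direction of HSF4. NOL3, an inhibitor of apoptosis, had 7.0, 3.32 and 6.93 FPKM in Jeko and 6.76, 4.15 and 4.99 in Rec-1, in the same order. NOL3 was thus lower than its control in all 4 sgRNA libraries, though the log2 difference in Jeko sgRNA 2 was only −0.013. Over both lines the difference of NOL3 was −0.47 (SE 0.29, limma adjusted p 0.349). Of the next genes out, KIAA0895L was also lower than its control in all 4 sgRNA libraries. It had 4.29, 3.35 and 1.80 FPKM in Jeko and 4.88, 2.80 and 2.71 in Rec-1, in the same order. TRADD, an adaptor of the TNF receptor, was not lower in all 4. Of all genes tested, 21.1% were.

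The protein-coding genes whose pattern over the 6 libraries was most like HSF4 were SPRN, SIRT7 and MRPL21, with Pearson r of 0.998, 0.997 and 0.996 on the log2(FPKM + 1) scale. SIRT7, a deacetylase of the nucleolus, stood at 18.9 and 22.8 FPKM in the controls of Jeko and Rec-1 and between 7.66 and 11.1 with a guide. Of 10312 genes compared, 445 had an r of at least 0.9. These are descriptions over 6 libraries of which the controls resemble each other. Among the group, r with HSF4 was −0.15 for HSF1, −0.11 for HSPA8, 0.054 for HSPH1 and −0.51 for HSP90AA1. It was 0.19 for HSPD1, 0.75 for HSPB1 and −0.88 for DNAJB1. HSPB1 and DNAJB1 are the members with a constant direction, the trait that chose HSF4. The share of all genes at such values was not computed.

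HSF1 had no constant direction. Jeko had 38.8 FPKM in its control, 32.0 with sgRNA 1 and 35.5 with sgRNA 2. Of the libraries labelled Rec-1, the control gave 32.7 FPKM, sgRNA 1 44.3 and sgRNA 2 32.3. The controls lay inside the range of the sgRNA libraries, and the highest library was only 1.39 times the lowest. Over both lines the log2 difference was 0.0017 (SE 0.22, limma adjusted p 0.997). In Jeko alone it was −0.20 (SE 0.28, limma adjusted p 0.801). HSF1 (chromosome 8, 145515273 to 145538383, plus strand) overlaps DGAT1, on the other strand, at its end. The genes most like HSF1 were PEX6, EPOR and RPL36, with r of 0.976, 0.966 and 0.959, and 15 of 10312 genes had an r of at least 0.9. HSF2, which can pair with HSF1, was between 10.2 and 14.4 FPKM in the 6 libraries, with a difference of −0.10 (SE 0.21, limma adjusted p 0.783).

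HSPA1A and HSPA1B, the classical heat-inducible HSP70 genes, were listed at 0 FPKM in all 6 libraries. They lie near each other on chromosome 6 (31783320 to 31785723 and 31795515 to 31798031, plus strand) and are near-identical copies. Of the 90 protein-coding genes within 1 Mb of HSPA1A, 78 were listed at 0 in all 6 libraries, or 86.7%, against 18.6% of the other 18802 protein-coding genes. Those at 0 include LSM2, CSNK2B, DDX39B and BAG6, which are used by nearly every cell. The zeros of HSPA1A and HSPA1B therefore cannot be read as absence of expression, and these genes give no answer here. HSPA6, another strictly inducible HSP70, lies elsewhere and was under 1 FPKM in 5 of the libraries.

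Since HSF1 acts through heat shock elements, the bases before the start of each gene are shown for those the results turn on. The elements were searched as GAANNTTC and TTCNNGAA, each of which reads the same on both strands, and as the 3-unit forms GAANNTTCNNGAA and TTCNNGAANNTTC, which contain them and are each other's reverse complement. Of the 10 genes, HSF1 was left out of this search, and the other 9 have an entry in the RefSeq promoter table. The 250 bases before the start nearest to the canonical transcript were used, placed on GRCh37 by an exact match. Of these 9, 7 held GAANNTTC or TTCNNGAA, against 11.6% of all 35116 windows in the table. HSF4 and HSPH1 held neither in this window, but the HSPH1 window starts from a RefSeq start 484 bases from the canonical one, and that of HSF4 lies wholly within annotated exons. A longer form was found at HSPA8, HSP90AA1 and HSPD1, and in 0.441% of all windows. Matches are in capitals, and they describe letters only. HSP90AA1 (chr14:102553382-102553631, minus strand), DNAJB1 (chr19:14629210-14629459, minus strand) and HSPB1 (chr7:75931740-75931989, plus strand) are given over all 250 bases, 5′ to 3′, because DNAJB1 and HSPB1 had a constant direction and HSP90AA1 holds a 3-unit form clear of annotated exons.
HSP90AA1: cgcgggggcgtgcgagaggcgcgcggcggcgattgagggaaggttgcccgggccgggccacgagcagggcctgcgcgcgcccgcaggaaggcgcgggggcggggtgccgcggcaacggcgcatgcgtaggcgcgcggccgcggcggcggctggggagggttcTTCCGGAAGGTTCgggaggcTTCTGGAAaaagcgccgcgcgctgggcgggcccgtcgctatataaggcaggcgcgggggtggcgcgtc
DNAJB1: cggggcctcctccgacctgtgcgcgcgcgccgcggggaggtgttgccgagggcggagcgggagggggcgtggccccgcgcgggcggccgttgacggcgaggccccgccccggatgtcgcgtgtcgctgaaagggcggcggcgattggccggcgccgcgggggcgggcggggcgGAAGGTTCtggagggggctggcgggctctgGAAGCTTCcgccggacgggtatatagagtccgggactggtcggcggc
HSPB1: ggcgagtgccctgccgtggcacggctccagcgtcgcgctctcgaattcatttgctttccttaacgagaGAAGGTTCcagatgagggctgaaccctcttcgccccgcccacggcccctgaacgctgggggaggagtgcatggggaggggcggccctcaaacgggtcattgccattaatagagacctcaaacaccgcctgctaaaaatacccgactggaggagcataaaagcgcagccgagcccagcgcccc
In HSP90AA1 the 3-unit form TTCCGGAAGGTTC ended 75 bases before the start and a further TTCTGGAA 60 bases before it. DNAJB1 held GAAGGTTC and GAAGCTTC, 69 and 39 bases before the start, and HSPB1 held GAAGGTTC 174 bases before it. For HSPA8 and HSPD1, whose windows overlap annotated exons, 30 bases around each match are shown, at chr11:122933053-122933082, chr11:122932878-122932907 and chr2:198364785-198364814, all on the minus strand.
HSPA8 distal: gcgagcttGAAAGTTCCAGAAcgctgcggt
HSPA8 proximal: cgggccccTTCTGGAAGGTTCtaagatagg
HSPD1: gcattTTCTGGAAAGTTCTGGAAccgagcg
The proximal element of HSPA8 ended 42 bases before the start. Genes with these matches were found among those that were higher (DNAJB1), lower (HSPB1) and mixed (HSPA8, HSP90AA1, HSPD1) in the sgRNA libraries.

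**Figure D1:**
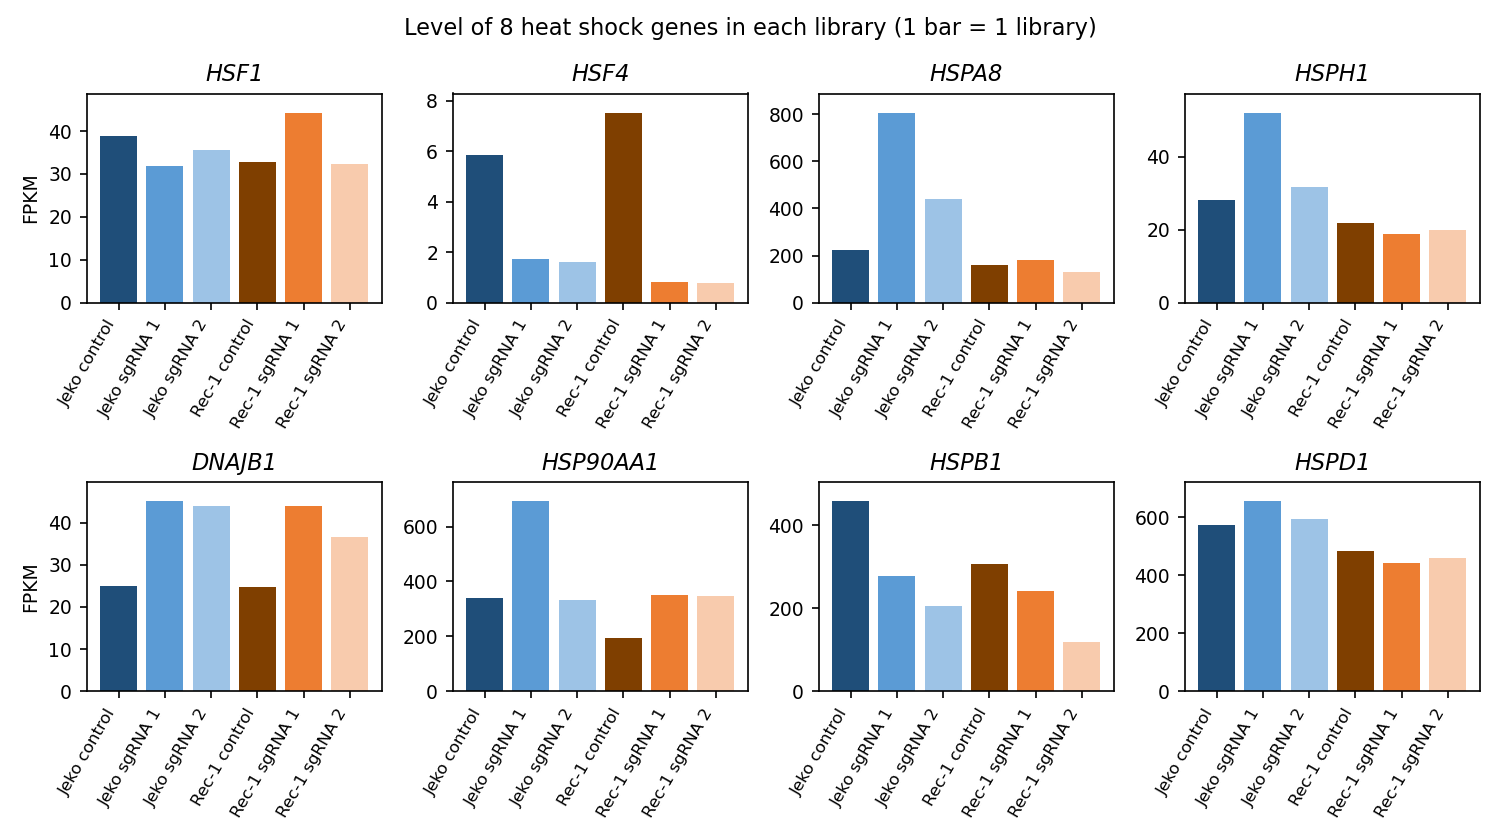
FPKM of the 8 detected genes in each of the 6 libraries, 1 bar per library, with a separate axis from 0 for each gene. HSF4 is high in the controls only (5.83 and 7.53 FPKM), HSPA8 is highest in Jeko sgRNA 1 (808 FPKM), and HSF1 stays between 32.0 and 44.3 FPKM.

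HSPA8 (chromosome 11, 122928197 to 122933938, minus strand) was highest in the Jeko sgRNA libraries. In Jeko the control reached 223 FPKM, sgRNA 1 808 and sgRNA 2 441, or 3.62 and 1.97 times the control. The library labelled Rec-1 control gave 158 FPKM, sgRNA 1 of that line 183 and sgRNA 2 128. Both Jeko sgRNA libraries were thus above every other library, while those of Rec-1 lay on either side of their control. In Jeko alone the log2 difference was 1.41 (SE 0.47, limma adjusted p 0.433), and in Rec-1 it was −0.047 (SE 0.47, limma adjusted p 0.956). Over both lines it was 0.68 (SE 0.43, limma adjusted p 0.363). The difference between the lines' responses was −1.46 (SE 0.67, limma adjusted p 0.309), so a response particular to Jeko was not shown. Without the Jeko control, the fit over both lines draws on Rec-1 alone and gave the −0.047 of that line.

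HSPH1 (chromosome 13, 31709110 to 31736525, minus strand), the HSP110 that recycles HSP70, was 28.2 FPKM in the Jeko control, 52.2 in Jeko sgRNA 1 and 31.9 in Jeko sgRNA 2. Of the libraries labelled Rec-1, the control gave 21.8 FPKM, sgRNA 1 18.8 and sgRNA 2 19.9. Jeko sgRNA 1 stood above the rest and both Rec-1 sgRNA libraries lay below all Jeko libraries. The log2 difference was 0.17 over both lines (SE 0.29, limma adjusted p 0.716) and 0.52 in Jeko alone (SE 0.36, limma adjusted p 0.598). Without Jeko sgRNA 1 the value over both lines turned to −0.023, and with adjustment for transcript length, in which HSPH1 is long at 5244 nt, it turned to −0.032.

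DNAJB1 was the member with the most even difference. Jeko had 25.0 FPKM in its control, 45.2 with sgRNA 1 and 44.1 with sgRNA 2. The library labelled Rec-1 control gave 24.6 FPKM, sgRNA 1 of that line 43.9 and sgRNA 2 36.7. All 4 sgRNA libraries were above both controls, by 1.49 to 1.80 times their own. Of all 11400 genes tested, 17% had all 4 sgRNA libraries above both controls. The log2 difference over both lines was 0.75 (SE 0.18), with an unadjusted p of 0.00717 and a limma adjusted p of 0.175, so DNAJB1 did not pass. In Jeko alone the difference was 0.81 (SE 0.23, limma adjusted p 0.397). The annotated span of DNAJB1 (chromosome 19, 14625581 to 14671203, minus strand) overlaps TECR on the other strand, and whether counting used strand is not stated. TECR had 78.1, 75.0 and 60.8 FPKM in Jeko and 65.5, 130 and 56.6 in Rec-1, in the order control, sgRNA 1 and sgRNA 2.

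HSP90AA1 (chromosome 14, 102547079 to 102606036, minus strand) was 341 FPKM in the Jeko control, 693 in Jeko sgRNA 1 and 332 in Jeko sgRNA 2. Of the libraries labelled Rec-1, the control gave 193 FPKM, sgRNA 1 350 and sgRNA 2 346. Jeko sgRNA 2 and both Rec-1 sgRNA libraries thus stood near the level of the Jeko control, with Jeko sgRNA 1 at 2.04 times it. The log2 difference was 0.67 over both lines (SE 0.32, limma adjusted p 0.270) and 0.49 in Jeko alone (SE 0.49, limma adjusted p 0.715). Without Jeko sgRNA 1, the Jeko value turned to −0.037. The annotated span of HSP90AA1 overlaps WDR20 on the other strand, which lay between 6.45 and 9.74 FPKM in the 6 libraries. HSP90AB1, the constitutive HSP90 of the cytosol, was between 612 and 1044 FPKM in the 6 libraries and also had its highest value in Jeko sgRNA 1.

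HSPB1 (chromosome 7, 75931990 to 75933612, plus strand), the small heat shock protein also called HSP27 that holds unfolding proteins in solution, was the other member with a constant direction. In Jeko the control reached 459 FPKM, sgRNA 1 279 and sgRNA 2 205. The library labelled Rec-1 control gave 306 FPKM, sgRNA 1 of that line 241 and sgRNA 2 119. All 4 sgRNA libraries were below both controls, as they were for 16.3% of all genes tested. The log2 difference over both lines was −0.90 (SE 0.33, limma adjusted p 0.219), and in Jeko alone −0.94 (SE 0.51, limma adjusted p 0.529). HSPB1 has a canonical transcript of 777 nt, in the shortest of 5 length classes, and its difference was −0.64 after adjustment for transcript length. The other small heat shock proteins were low: of 9 genes in this list only HSPB1 reached a mean of 1 FPKM, and CRYAB was at or below 0.123 FPKM in every library.

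HSPD1 (chromosome 2, 198351308 to 198381461, minus strand), the HSP60 that folds proteins in the mitochondrial matrix, had the highest mean of the 10 genes and the smallest spread after HSF1. Jeko had 573 FPKM in its control, 655 with sgRNA 1 and 594 with sgRNA 2. Of the libraries labelled Rec-1, the control gave 483 FPKM, sgRNA 1 441 and sgRNA 2 459. Jeko libraries were all above Rec-1 libraries, and the sgRNA libraries lay slightly above their control in Jeko and slightly below it in Rec-1. The log2 difference was 0.0089 over both lines (SE 0.16, limma adjusted p 0.975) and 0.12 in Jeko alone (SE 0.20, limma adjusted p 0.835). HSPE1, its co-chaperonin, had 268, 331 and 169 FPKM in Jeko and 186, 128 and 119 in Rec-1, in the order control, sgRNA 1 and sgRNA 2. Its gene lies on the other strand inside the annotated span of HSPD1, which also overlaps MOB4. Whether counting used strand is not stated. HSPA8, HSP90AA1, HSPB1 and HSPD1 belong to families with processed copies elsewhere in the genome, and their values are uncertain to the extent that reads were shared with these.

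**Figure D2:**
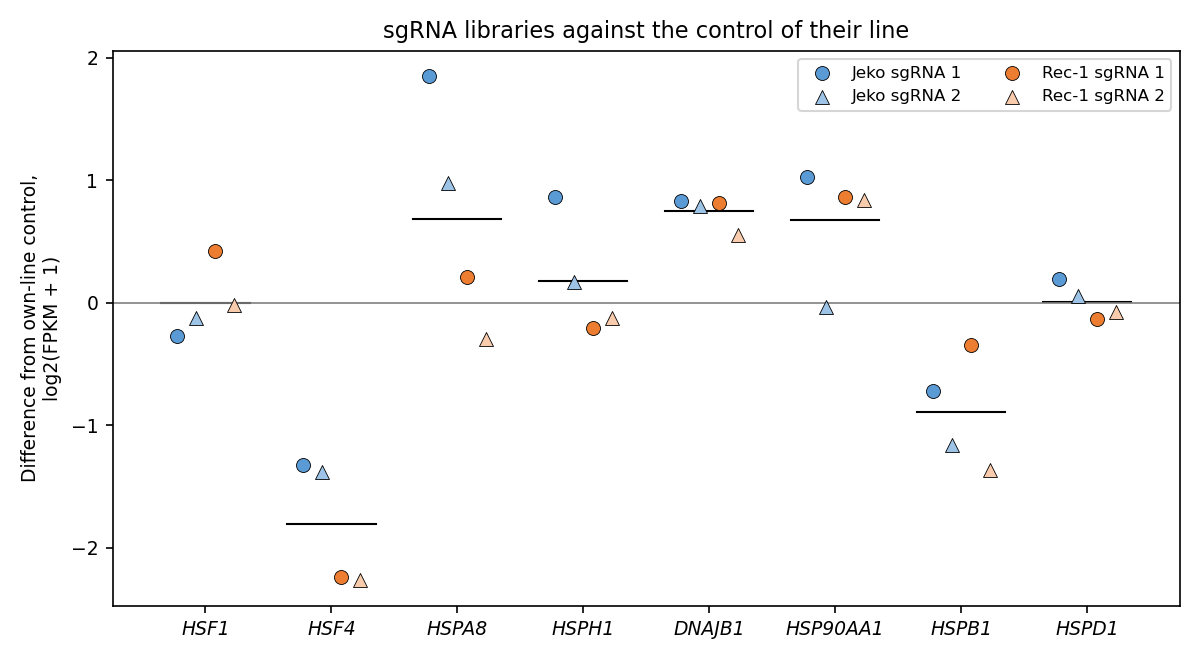
Difference of each sgRNA library from the control of its own line, on the log2(FPKM + 1) scale, for 8 genes (4 points per gene, 1 per library, with their mean as a black line). DNAJB1 is above 0 and HSF4 and HSPB1 are below 0 in all 4 libraries, while HSPA8 reaches 1.85 in Jeko sgRNA 1 and −0.30 in Rec-1 sgRNA 2.

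The order of levels among the genes was led by HSPD1, HSPB1, HSP90AA1 and HSPA8 in both controls, while HSF1, HSPH1 and DNAJB1 were lower and HSF4 last. In Jeko sgRNA 1 the order changed, and HSPA8 at 808 FPKM and HSP90AA1 at 693 FPKM stood above HSPD1. HSF1 (32.0 to 44.3 FPKM), DNAJB1 (24.6 to 45.2) and HSPH1 (18.8 to 52.2) overlapped in range and cannot be ordered beyond their spread.

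Counted together, 7 tested members other than HSF4 were compared with the controls, and limma's adjusted p was under 0.05 for 0 of them over both lines. The background over both lines was 0.246% of 11400 genes. An unadjusted p under 0.05 was found for 2 of the 7, DNAJB1 and HSPB1, where 21.1% of all genes had one. In Jeko alone 0 of 7 passed limma's adjusted threshold, against a background of 0.439%, and 2 had an unadjusted p under 0.05, DNAJB1 and HSPA8 (11.3% of all genes). In Rec-1 0 of 7 passed limma's adjusted threshold, against 19.2% of all genes, and DNAJB1 alone had an unadjusted p under 0.05 (38.6% of all genes). For the difference between the lines' responses, 0 passed limma's adjusted threshold and 0 had an unadjusted p under 0.05, against 6.94% of all genes by the adjusted and 21.9% by the unadjusted p. Of the 7, 1 was higher and 1 lower than its own control in all 4 sgRNA libraries, where 21% of all genes were higher and 21.1% lower. These shares are close to the background. The libraries of sgRNA 1 and 2 of a line share their control.

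The wider chaperone network was mixed. The lists of related genes held 84 names with the members, and 69 of these genes had a mean of at least 1 FPKM. Over both lines and in Jeko alone, limma's adjusted p was under 0.05 for none of the list genes tested, HSF4 aside. Of 10 tested HSP40 genes, 5 were higher than the own-line control in all 4 libraries and 2 lower, where 21% and 21.1% of all genes were. An unadjusted p under 0.05 was found for 4 of the 10, and for 21.1% of all genes. DNAJA1, the farnesylated partner of HSPA8, had 71.0, 233 and 134 FPKM in Jeko and 52.5, 59.4 and 77.7 in Rec-1, in the order control, sgRNA 1 and sgRNA 2. It was highest in Jeko sgRNA 1, as HSPA8 was, but above its control in both Rec-1 sgRNA libraries, as HSPA8 was not. It was named after its values were seen. DNAJB14 differed by 0.57 (SE 0.19, limma adjusted p 0.207), and by 0.33 with adjustment for transcript length (5967 nt). DNAJC7 and DNAJB12 differed by −0.64 and −0.39 (SE 0.24 and 0.20, limma adjusted p 0.224 and 0.282). Of 6 tested genes in the HSP70 list, HSPA4, HSPA4L and HSPA13 were higher in all 4 (50%) and 0 lower, against 21% and 21.1% of all genes. The differences were 0.35 for HSPA4 (SE 0.24, limma adjusted p 0.393), 0.49 for HSPA4L (SE 0.22, limma adjusted p 0.257) and 1.25 for HSPA13 (SE 0.44, limma adjusted p 0.213). With adjustment for transcript length the difference was 0.22 for HSPA4L, which is long at 10608 nt, and 1.16 for HSPA13. HSPA13 is a microsomal HSP70.

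HSP90 and its co-chaperones varied by library, with list medians of 0.24 and −0.22 in Jeko sgRNA 1 and 2 and −0.61 and −0.31 in Rec-1 sgRNA 1 and 2. Of 11 tested genes, 0 were higher and 3 (27.3%) lower than the own-line control in all 4 sgRNA libraries, against 21% and 21.1% of all genes. Limma's unadjusted p was under 0.05 for 0 of the 11, and for 21.1% of all genes. PPID, a cyclophilin that binds HSP90, differed by −0.51 (SE 0.23, limma adjusted p 0.257) and CACYBP by −0.60 (SE 0.27, limma adjusted p 0.255). In the partner proteins of HSP70, ST13 was higher in all 4, at 0.43 (SE 0.18, limma adjusted p 0.246), and HSPBP1 and BAG2 lower, at −0.55 and −0.53 (SE 0.36 and 0.21, limma adjusted p 0.381 and 0.233). Among 8 mitochondrial chaperones, DNAJA3 and TRAP1 were lower in all 4, at −0.82 and −0.99 (SE 0.30 and 0.39, limma adjusted p 0.218 and 0.234). Among the 8 subunits of the cytosolic chaperonin TRiC, which folds actin and tubulin, CCT7 and CCT2 were lower in all 4, at −0.57 and −0.70 (SE 0.19 and 0.28, limma adjusted p 0.206 and 0.233). In the lists of HSP70 partner proteins, mitochondrial chaperones and TRiC subunits alike, 25% of the tested genes were lower in all 4. This share is near the 21.1% of all genes. Higher in all 4 were 12.5%, 0% and 0%, against 21% of all genes. The list medians of the TRiC subunits were −0.052, −0.42, −0.40 and −0.43 in Jeko sgRNA 1 and 2 and Rec-1 sgRNA 1 and 2, where the medians of all genes lay between −0.018 and 0.00037.

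In Rec-1 alone, where the library labelled control stood with Jeko, limma's adjusted p was under 0.05 for 6 of the 68 list genes and members tested, HSF4 left out. This is 8.82%, below the 19.2% of all genes. BAG3, DNAJA3, CCT2 and CCT6A were lower and CALR and DNAJC3 higher.

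The listed chaperones of the endoplasmic reticulum, which answer mainly to other sensors than HSF1, were above the control in 3 of the 4 sgRNA libraries. The median over this list came to −0.13 in Jeko sgRNA 1, where 3 of 9 genes lay above the control, and 1.25 in Jeko sgRNA 2, 1.51 in Rec-1 sgRNA 1 and 1.62 in Rec-1 sgRNA 2, with 9 of 9 above it in each. Of all 11400 genes tested, 5705, 5655, 5514 and 5668 lay above the control in these libraries, in the same order. HSPA5, the HSP70 of this compartment, had 114, 104 and 333 FPKM in Jeko and 143, 410 and 494 in Rec-1, in the order control, sgRNA 1 and sgRNA 2. PDIA4 was higher in all 4, at 1.09 (SE 0.27, limma adjusted p 0.177), as was DNAJC3, at 2.49 (SE 0.73, limma adjusted p 0.193). Of the 9 genes, 3 (33.3%) were higher and 0 lower in all 4, against 21% and 21.1% of all genes.

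**Figure D3:**
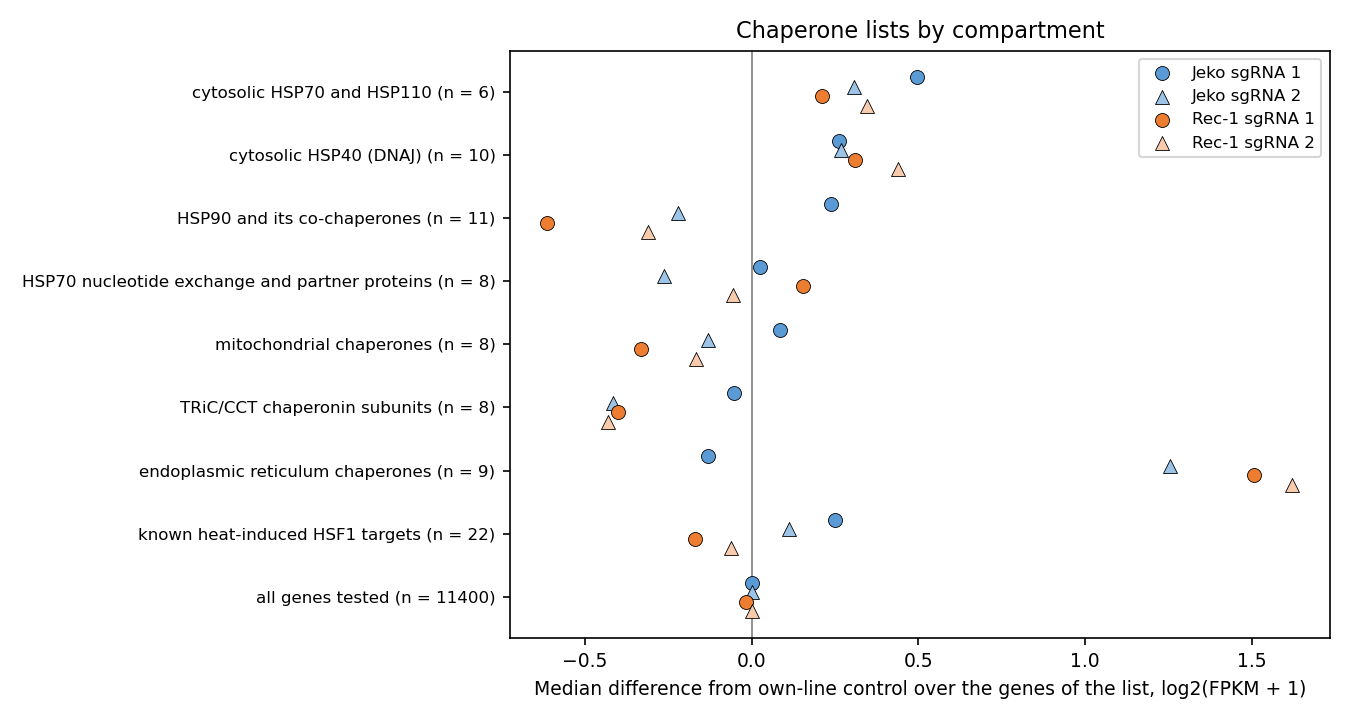
Median difference from the own-line control over the tested genes of each list, on the log2(FPKM + 1) scale, with 1 point per sgRNA library and all 11400 tested genes in the lowest row. The endoplasmic reticulum list lies at −0.13 in Jeko sgRNA 1 and between 1.25 and 1.62 in the other libraries, while the HSF1 target list stays between −0.17 and 0.25.

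Of the 25 genes in the list of HSF1 targets known to be induced by heat, 22 were tested, among them 6 of the members. Their median difference was 0.25 and 0.11 in Jeko sgRNA 1 and 2 and −0.17 and −0.062 in Rec-1 sgRNA 1 and 2. Of the 22, 5 (22.7%) were higher and 3 (13.6%) lower than the own-line control in all 4 libraries, against 21% and 21.1% of all genes. DEDD2 was higher, at 0.78 (SE 0.29, limma adjusted p 0.219), and UBB, a ubiquitin gene, lower, at −0.47 (SE 0.18, limma adjusted p 0.223). For 12 of the 22, or 54.5%, the highest of the 6 libraries was Jeko sgRNA 1, where this library was highest for 18.7% of all genes. Some other lists had like shares there: 7 of 11 genes of HSP90 and its co-chaperones (63.6%), 3 of 6 of the HSP70 list (50%) and 4 of 8 mitochondrial chaperones (50%). The share was lower for the HSP40 genes (40%), the TRiC subunits (37.5%) and the partner proteins of HSP70 (12.5%). It was 0% for the heat shock factors, the small heat shock proteins and the endoplasmic reticulum chaperones. The lists overlap in part. Of the 7 tested members other than HSF4, 5 were highest there: HSPA8, HSPH1, DNAJB1, HSP90AA1 and HSPD1. This count was made after the values were seen, and it describes 1 library. For 6 of the 9 endoplasmic reticulum chaperones the highest library was Rec-1 sgRNA 2, which was highest for 20.7% of all genes.

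**Figure D4:**
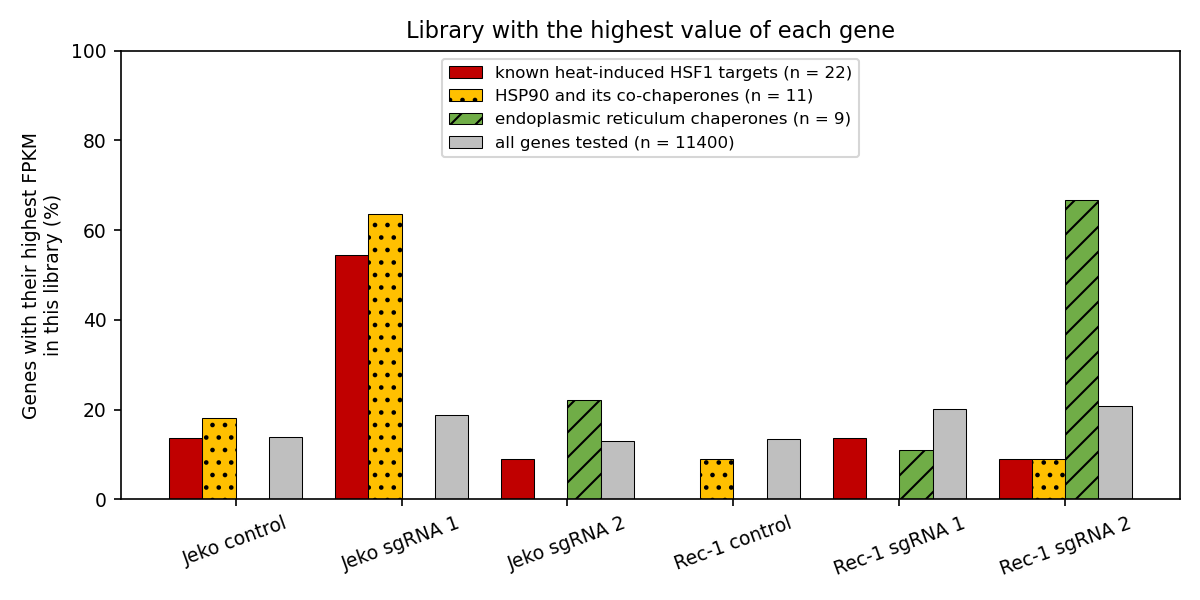
Share of genes (%) whose highest FPKM among the 6 libraries fell in each library, for 22 HSF1 targets, 11 genes of HSP90 and its co-chaperones, 9 endoplasmic reticulum chaperones and all 11400 tested genes. The HSF1 targets and the HSP90 list peak in Jeko sgRNA 1, at 54.5% and 63.6%, and the endoplasmic reticulum chaperones in Rec-1 sgRNA 2 at 66.7%.

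The sgRNA libraries of the lines were also set against each other, which leaves the controls out of the contrast. The libraries labelled Rec-1 sgRNA differed from the Jeko sgRNA libraries at 25.9% of all genes by limma's adjusted p under 0.05, and of the 7 tested members other than HSF4, 1 passed, HSPA8, which was lower in Rec-1. By the unadjusted p, 3 of the 7 were under 0.05 (42.3% of all genes). HSPA8 averaged 625 FPKM in the Jeko and 155 in the Rec-1 sgRNA libraries, a log2 difference of −1.96 (SE 0.39, limma adjusted p 0.0345). With any of the 4 sgRNA libraries left out HSPA8 did not pass, with a limma adjusted p between 0.0703 and 0.155, nor with no filter on low values (limma adjusted p 0.0690). A share of 1 in 7 is not above the background. HSF4 averaged 1.67 and 0.791 FPKM, which is given with no test because these values chose the gene. Its mean over all 6 libraries was 3.05 FPKM, so that it passed the filter of 1 FPKM, with both Rec-1 sgRNA libraries below it. HSPH1 differed by −1.04 (SE 0.29, limma adjusted p 0.0712) and HSPD1 by −0.47 (SE 0.16, limma adjusted p 0.107). Of the 68 list genes and members tested other than HSF4, 14 passed limma's adjusted threshold in this contrast. This is 20.6%, below the 25.9% of all genes. Among the 14 was BAG3, a partner of HSP70 induced through HSF1. It was lower in the Rec-1 sgRNA libraries than in those of Jeko by 1.48 on the log2 scale (SE 0.16, limma adjusted p 0.00872). It had 6.28, 7.25 and 8.31 FPKM in Jeko and 6.18, 2.07 and 2.24 in the libraries labelled Rec-1, in the order control, sgRNA 1 and sgRNA 2.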

How the data were processed

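RNA of 6 libraries was sequenced from an Illumina TruSeq kit, per the labels' protocols. The authors deposited 1 table of FPKM, per the file headers, with 25277 gene rows and 1 column per library. TopHat and the build hg19 are named in the submitters' processing notes. The program that computed FPKM, the annotation and the use of strand are not given in the sources used here. Columns were matched to samples by line and guide number.

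Values were analysed as log2(FPKM + 1), a scale on which changes at low levels come out too small. The 11400 rows whose mean across the 6 columns reached 1 FPKM entered limma 3.58.1 in R 4.3.3 (lmFit, eBayes with a mean-variance trend) and Benjamini-Hochberg adjustment over all of them at 0.05. The fit over both lines had the line as covariate. Fits within a line, of the difference between lines and between the sgRNA groups used 4 group means, with a spread that comes from the guides alone, so a lone control is assumed to vary like the guides. HSF4 was given no p in any comparison. The fits were tested on simulated data.

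Absolute depth is unknown. The commonest ratio of low values put the depth, with the Jeko control as 1, at 0.872 (Jeko sgRNA 1), 1.10 (Jeko sgRNA 2), 1.10 (Rec-1 control) and 0.687 (Rec-1 sgRNA 2), a ratio shared by 31.6% to 36.4% of low genes. For Rec-1 sgRNA 1 the commonest ratio was shared by 2.31%, and no depth was taken. No counting interval was computed. Gene positions, types and lengths are from GENCODE 44 lifted to GRCh37, and promoter sequences from the RefSeq table (GRCh38.p14). For older names, RefSeq synonyms were used, and 22635 rows matched.

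The members and gene lists were chosen with earlier results of these data known. All 10 members are named. Of each list, up to 2 higher and 2 lower genes are named, those with the same sign in all 4 differences whose smallest difference was largest. Also named are the 3 protein-coding genes with the highest Pearson r to HSF4 and to HSF1 and the 2 genes nearest to HSF4 on each side. HSPA4, HSPA5, HSPA6, HSPB6, HSPE1, HSP90AB1, DNAJA1, BAG3, CCT6A, CALR and SERPINH1 were named after their values were seen. Paralogues, genes that overlap a member, region genes and markers are named as context. Other steps ran in Python 3.11.15 (pandas 2.3.3, matplotlib 3.10.9). Alternatives were another pseudocount (0.1), other filters, upper-quartile rescaling, protein-coding genes only, adjustment for transcript length, no variance trend, a replicate block, leaving out each library, and, chosen after seeing the data, the Jeko libraries alone.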

Additional observations from a re-analysis of the deposited data

Results flagged for a closer look

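The sgRNA libraries lay on opposite sides of their control in the lines at HSPH1 and HSPD1, above it in both Jeko libraries and below it in both Rec-1 libraries, as at 20.7% of all genes tested. The difference between the lines' responses was −0.69 for HSPH1 (SE 0.51, limma adjusted p 0.501) and −0.23 for HSPD1 (SE 0.28, limma adjusted p 0.684), and neither passed the threshold.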

How the results depend on the processing

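Over both lines 28 genes passed limma's adjusted threshold. The count was 12 with no filter on low values, 13 with adjustment for transcript length and 0 among protein-coding genes only (2317 at an unadjusted p under 0.05 in limma). It was 56 with the Jeko libraries alone, an alternative chosen after seeing the data, and 15 to 2307 with 1 library left out, the highest without the Jeko control. In Jeko the 50 genes became 3 among protein-coding genes only. With a minimum mean of 5 FPKM the counts were 1083 in place of 2184 in Rec-1, 318 in place of 791 for the difference between the lines, and 1549 in place of 2947 between the sgRNA groups. With 1 library left out these ranged from 520 to 2307, from 57 to 335 and from 704 to 954. HSPA8, the 1 member called between the sgRNA groups, was joined by HSPH1 among protein-coding genes only (2 members), and 0 members passed with no filter or with any of the 4 sgRNA libraries left out (0 to 0). The cause was not tested.

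Same-numbered guides deviated together with a correlation of 0.0998, so the numbers were not taken to pair the samples. Entering that number as a replicate block left 9 genes past the threshold over both lines, and HSPA8 still passed between the sgRNA groups.

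Signs turned as follows, with ranges over fits that leave out 1 library. Over both lines HSF1 ranged from −0.20 to 0.20 (−0.20 in Jeko alone), HSPA8 from −0.047 to 1.41, HSPH1 from −0.17 to 0.52 (−0.032 with length adjustment) and HSPD1 from −0.10 to 0.12. The ends of these ranges are the differences of Jeko alone and Rec-1 alone. A fit over both lines without the control of a line draws on the other line only. In Jeko HSP90AA1 ranged from −0.037 to 1.02. In Rec-1 HSF1 ranged from −0.019 to 0.43 and HSPA8 from −0.30 to 0.21, and length adjustment gave 0.091 for HSPA8 and 0.036 for HSPD1. For the difference between the lines HSPB1 ranged from −0.42 to 0.59 (−0.088 with length adjustment) and HSP90AA1 from −0.17 to 0.89. Between the sgRNA groups HSF1 ranged from −0.058 to 0.39, HSPB1 from −1.0 to 0.014 and HSP90AA1 from −0.99 to 0.068. Depth is unknown, and 1 control per line limits every comparison.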

Other observations

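Several inducible or tissue-restricted heat shock genes fell under the filter of 1 FPKM. HSPA6, an HSP70 made almost only under stress and with a close copy, HSPA7, was 0.158 FPKM in the Jeko control, 0.362 and 0.358 in Jeko sgRNA 1 and 2, 0.0574 in the library labelled Rec-1 control, and 2.15 and 0.873 in those labelled Rec-1 sgRNA 1 and 2. Every sgRNA library was above both controls, as at 17% of the 11400 genes tested. HSPA6 was under the filter of 1 FPKM, and no test was made of it. HSPB6, a small heat shock protein of muscle, was 0.369, 0.141 and 0.363 FPKM in the Jeko libraries and 0.336, 0.839 and 1.43 in the Rec-1 ones, in the same order. HSF5, a factor of the testis, was listed at 0 in 5 libraries and was 0.0144 FPKM in Rec-1 sgRNA 2.

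SERPINH1, a collagen chaperone of the endoplasmic reticulum that HSF1 also induces, was 14.0 FPKM in the Jeko control, 6.59 and 19.7 in Jeko sgRNA 1 and 2, 17.6 in the library labelled Rec-1 control, and 64.0 and 67.7 in those labelled Rec-1 sgRNA 1 and 2. Between the sgRNA libraries of the lines it differed by 2.41 on the log2 scale (SE 0.53, limma adjusted p 0.0430), higher in Rec-1. It was among the 14 of 68 list genes and members called in that contrast (20.6%), against 25.9% of all genes.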
